A study of Danio rerio with 2 samples.

Results

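The genes described here are 10 transcription factor genes of blood and blood stem cells, runx1, myb, gata1a, gata2a, gata2b, tal1, lmo2, spi1b, ikzf1 and cebpa, as they were recovered with the RNA-binding protein Cpeb1b from zebrafish embryos. Members were chosen by gene name, and all 10 had a row, 10 of the 33737 rows of the deposited table. Of these, 8 matched by their own name. The other 2 stood under a name without a paralogue letter: the row GATA2 was taken as gata2a and the row SPI1 as spi1b, because gata2b and spi1a have separate rows and RefSeq (assembly GRCz12tu) lists gata2 and spi1 as synonyms of gata2a and spi1b. Embryos of wild type genotype had been injected with mRNA for Flag-tagged Cpeb1b and were collected at 16 h post-fertilization (hpf). RNA held on anti-FLAG beads was sequenced (RNA immunoprecipitation sequencing, RIP-seq) in 2 biological replicates, the single group of the series. Cpeb1b was therefore supplied by injection in every sample, and the strain and the number of embryos per sample are not given in the labels. An input, a control antibody and uninjected embryos were not analysed here, so each value is a level in the precipitate and not an enrichment. Expression in the embryo and recovery by the beads cannot be told apart in such a level.

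Blood forms in waves. In the zebrafish a primitive wave makes red cells and macrophages in the lateral mesoderm during somite formation, and a definitive wave later releases stem cells from hemogenic endothelium, the blood-forming part of the wall of the dorsal aorta. The 10 factors sit at successive steps of this programme. Tal1 (a helix-loop-helix protein), Lmo2 (a LIM-only adaptor) and Gata2a act in blood and vessel progenitors, Gata2b and Runx1 in hemogenic endothelium, and Myb in the stem and progenitor cells that follow. Gata1a drives the erythroid lineage, Spi1b (Pu.1) and Cebpa the myeloid lineages, and Ikzf1 (Ikaros) the lymphoid lineage. Cpeb1b itself binds the untranslated regions of mRNAs and controls the length of their poly(A) tails, and the study behind the series connects it to definitive hematopoiesis.

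Values are RPKM, read numbers divided by gene length and by library size, and the table gives 1 mean per gene over both replicates. No spread between replicates could be computed, and no test was possible. What remains is counting error. The spacing of low values that several rows share put RPKM 1 at an estimated 13.1 reads per kilobase, summed over both libraries. That estimate assumes a plain mean of libraries of similar depth, which was not tested. Gene lengths were not used here, so the 95% Poisson ranges below apply to a gene model of 1 kb and would be narrower for a longer one. They hold no other error, and without molecular identifiers several reads may stem from 1 molecule. In whole embryos, fewer cells of a type and less RNA per cell cannot be told apart. Markers of the large tissues differed widely in level. The epidermal keratin genes krt4 and krt5 had 319 and 198 RPKM, and the yolk layer apolipoprotein gene apoa1a had 263 RPKM. The muscle actin gene actc1a had 33.3 RPKM, but the muscle factor gene MYOD1 only 6.96 RPKM. The neural genes SOX3 and NEUROD4 had 21.2 and 18.7 RPKM. The endothelial markers FLI1, cdh5 and TIE1 stood at 2.57, 1.01 and 0.578 RPKM.

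Most of the blood factors were detected in the Cpeb1b precipitate, and runx1 and gata2b had the lowest values. Both act in hemogenic endothelium, but no marker used here shows whether that tissue was present at 16 hpf. The counting range of runx1 overlaps those of ikzf1, tal1 and gata1a, so its place among these is not resolved. At RPKM 1 or more, the level used here to call a gene detected, 7 of the 10 members were found, against 38.6% of all rows and 46.8% of rows with a gene name. Of the 7, gata1a and tal1 had ranges that reach below RPKM 1. The median was 0.507 RPKM for all rows, 0.854 RPKM for rows with a name and 3.14 RPKM for the rows at RPKM 1 or more. Over the 10 member rows it was 2.12 RPKM. Without the rows GATA2 and SPI1, which were matched without a paralogue letter, the median was 1.09 RPKM. Levels spanned 74.9-fold, from 11.7 RPKM for cebpa to 0.156 RPKM for gata2b, which rests on about 2.05 reads per kilobase. At RPKM 5, 3 members were found, against 13.3% of all rows and 16% of rows with a name. At RPKM 0.1 all 10 were found, against 70.7% and 82.6%.

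**Figure D1:**
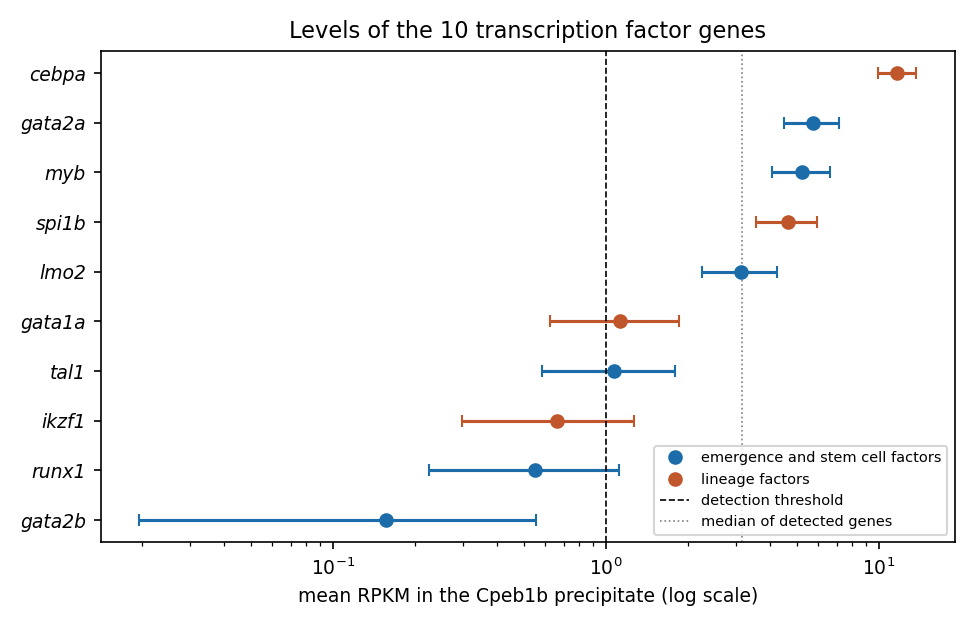
Mean RPKM of each of the 10 genes on a log axis, with bars for the 95% Poisson range of a 1 kb gene model; the dashed line is RPKM 1 and the dotted line the median of detected genes. The level of cebpa stands above the rest at 11.7 RPKM, gata2a, myb, spi1b and lmo2 lie between 3.12 and 5.72 RPKM, and gata2b is lowest at 0.156 RPKM.

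Of the 6 emergence and stem cell factors 4 were detected, where 38.6% of all rows and 46.8% of rows with a name were. The gata2a row (GATA2, ENSDARG00000059327) had 5.72 RPKM, rank 3944 of 33737, with 88.3% of rows below it. That level corresponds to about 75.0 reads per kilobase, with a counting range of 4.50 to 7.16 RPKM. The myb row (MYB, ENSDARG00000053666) had 5.21 RPKM, with a range of 4.05 to 6.60 RPKM and 87.2% of rows below it. These 2 levels overlapped in their counting ranges. Myb is a DNA-binding activator that stem and progenitor cells need for their maintenance.

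The adaptor gene lmo2 (ENSDARG00000095019) had 3.12 RPKM, with a range of 2.24 to 4.24 RPKM, and was close to the median of detected rows. The helix-loop-helix gene tal1 (ENSDARG00000019930) had 1.07 RPKM, with a range of 0.583 to 1.79 RPKM. Lmo2 carries no DNA-binding domain of its own and joins Tal1 to Gata factors, so both proteins belong to 1 complex, yet the lmo2 level was 2.93 times that of tal1 and their ranges were separate.

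The remaining 2 genes of this group fell under the threshold. The runx1 row (RUNX1, ENSDARG00000087646) had 0.549 RPKM, about 7.21 reads per kilobase, with a counting range of 0.224 to 1.12 RPKM that reaches past RPKM 1. It had 51.2% of all rows and 41.6% of rows with a name below it. The gata2b row (ENSDARG00000009094) had 0.156 RPKM, about 2.05 reads per kilobase, with a range of 0.0196 to 0.556 RPKM and 33.4% of rows below it. With a 1 kb gene model the data therefore do not settle whether the runx1 level lay above or below RPKM 1. The range of gata2b lay wholly below it. For a 3 kb model the runx1 range was 0.343 to 0.834 RPKM, also below RPKM 1, so the answer depends on the gene length. Runx1 is the factor that the endothelium-to-blood transition requires, and in zebrafish Gata2b acts upstream of it. The runx1 level was 9.50 times lower than that of myb.

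Of the 4 lineage factors 3 were detected, where 38.6% of all rows and 46.8% of rows with a name were. The myeloid pair stood highest. The cebpa row (CEBPA, ENSDARG00000036074) had 11.7 RPKM, rank 1978, with 94.1% of rows below it and about 153 reads per kilobase. Its counting range of 9.89 to 13.7 RPKM was above those of all the other members. It alone made up 34.4% of the summed RPKM of the 10 rows. Cebpa is a leucine-zipper factor of granulocytes that is also known from liver and fat. The spi1b row (SPI1, ENSDARG00000000767) had 4.63 RPKM, with a range of 3.54 to 5.95 RPKM and 85.8% of rows below it.

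The erythroid factor gata1a (ENSDARG00000013477) had 1.12 RPKM, with a range of 0.624 to 1.86 RPKM, so that the spi1b level was 4.13 times higher and the ranges did not meet. Spi1 and Gata1 are known to oppose each other in the choice between myeloid and erythroid fate. The lymphoid factor ikzf1 (IKZF1, ENSDARG00000013539) had 0.662 RPKM, with a range of 0.298 to 1.27 RPKM that again includes RPKM 1. For a 3 kb model its range was 0.433 to 0.970 RPKM, below RPKM 1.

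In descending order the 10 genes were cebpa, gata2a, myb, spi1b, lmo2, gata1a, tal1, ikzf1, runx1 and gata2b. Of the 9 pairs of neighbours in this order 7 had overlapping ranges for 1 kb gene models. The order was set apart only between cebpa and gata2a, a ratio of 2.04, and between lmo2 and gata1a, a ratio of 2.78. For models of 3 kb, spi1b and lmo2 as well as runx1 and gata2b also separated, and 5 pairs still overlapped. Within the 5 lowest genes, then, the order of any adjacent pair is not resolved for a 1 kb model.

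**Figure D2:**
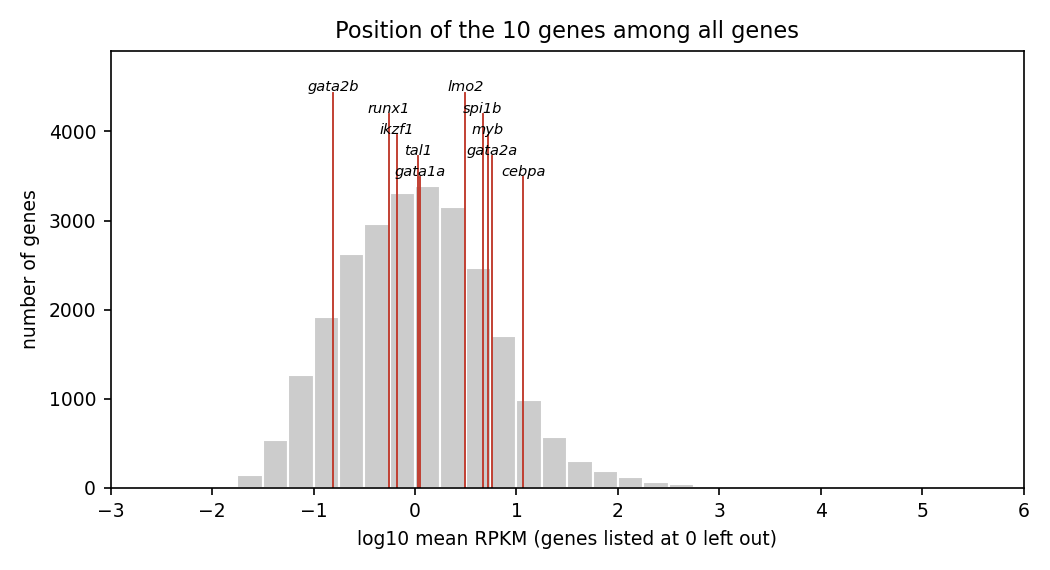
Number of genes by log10 mean RPKM in bins of 0.25 (genes listed at 0 left out), with a red line at each of the 10 genes. The upper 5 genes lie on the right side of the distribution. The genes gata1a and tal1 lie in its tallest bin, and ikzf1, runx1 and gata2b lie to the left of that bin.

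The 10 genes belong to 8 families, taken by gene name, which together held 34 rows. Of these, 24 were not members, and 17 of those 24 were detected, where 46.8% of all rows with a name were. These counts include CEBPZ, which is described below. The entries gata4, gata6, ikzf3 and lyl1 matched no row, so the families are not complete. In the Gata family, zinc-finger factors that bind GATA motifs, the paralogues gata2a and gata2b differed 36.7-fold in level. That ratio is imprecise, since gata2b has about 2.05 reads per kilobase. In contrast, gata1b at 1.19 RPKM and gata1a at 1.12 RPKM overlapped in their ranges. GATA5, a factor of heart and endoderm, had 9.93 RPKM, 1.74 times the gata2a level, and GATA3, which is known from neurons, epidermis and T cells, had 5.02 RPKM. Reads from paralogues with similar sequence may have been split or shared in ways that the labels do not describe.

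Within the Runx family, runx1 was the third of 4 genes. The skeletal factor gene runx2b had 8.19 RPKM, 14.9 times the runx1 level, with a separate counting range. RUNX2 had 1.11 RPKM and RUNX3 0.272 RPKM, and both ranges overlapped that of runx1. Of the Spi genes, ETS-domain factors, only spi1b was detected. Its level was 13.9 times that of spi1a (0.333 RPKM), 24.9 times that of spi2 (0.186 RPKM) and 66.4 times that of SPIC (0.0697 RPKM). The levels of spi1a, spi2 and SPIC rest on about 4.37, 2.44 and 0.915 reads per kilobase, so these ratios are imprecise. Their counting ranges nevertheless lay below that of spi1b.

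The myb level was the highest of its family, at 2.02 times MYBL2 (2.58 RPKM), a cell-cycle regulator, 2.46 times MYBL1 (2.12 RPKM) and 3.56 times mybl2a (1.46 RPKM). Among the leucine-zipper C/EBP genes cebpa was also highest, with cebpg at 4.74 RPKM, CEBPB at 2.71 RPKM and CEBPD at 1.82 RPKM. CEBPZ, which shares the name but not the leucine zipper, had 13.5 RPKM. The Ikaros family ran from 0.662 RPKM for ikzf1 to 1.73 RPKM for IKZF5, with IKZF2 and IKZF4 between them. All 4 lay below the 3.14 RPKM median of detected rows and above the 0.507 RPKM median of all rows. The ikzf1 level was below the 0.854 RPKM median of rows with a name. The range of ikzf1 overlapped those of IKZF2, IKZF4 and IKZF5. In the Lmo family lmo2 was exceeded by lmo4a, at 32.4 RPKM 10.4 times the lmo2 level, and overlapped LMO4 at 3.94 RPKM, whereas LMO3 and LMO1 were under the threshold at 0.874 and 0.657 RPKM. TAL2 had 0.696 RPKM and overlapped tal1.

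**Figure D3:**
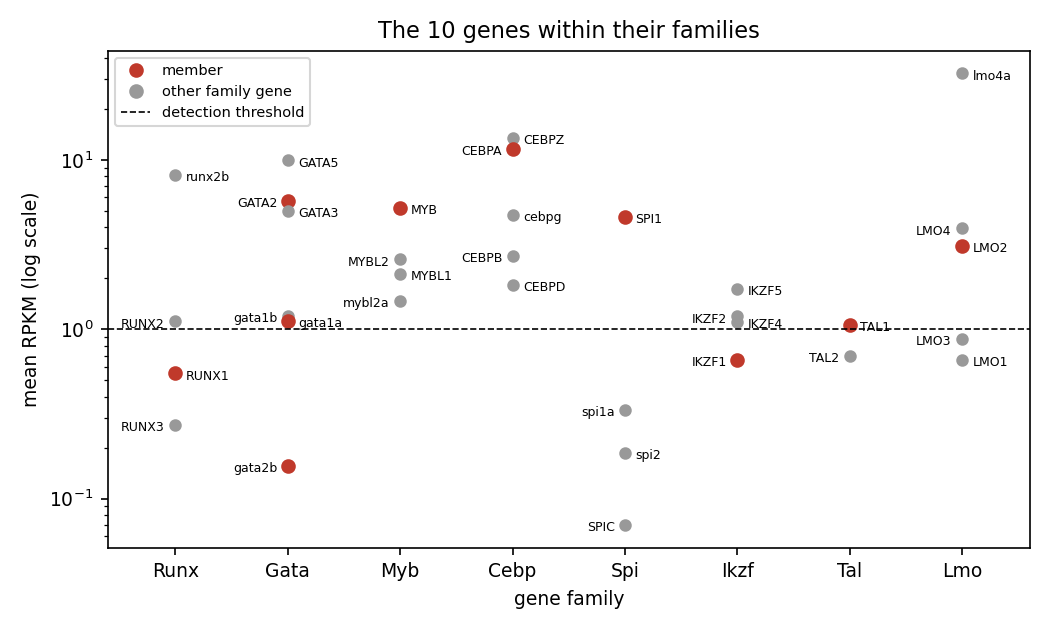
Mean RPKM on a log axis for the rows found by name in the 8 families, with members in red and other genes in grey. The dashed line is RPKM 1. Among the rows drawn, the member is the highest in the Myb, Spi and Tal families, whereas runx1 and lmo2 lie below runx2b (8.19 RPKM) and lmo4a (32.4 RPKM).

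Genes for partner proteins with which the members bind DNA had higher levels than several members. A list of 14 partners and relatives of complex subunits gave 10 rows, of which 9 were detected, where 46.8% of rows with a name were. The median was 4.77 RPKM against 2.12 RPKM for the members, or 1.09 RPKM for the 8 members matched by their own name. Its highest were lmo4a, the E-protein gene tcf3a at 22.6 RPKM, the scaffold gene LDB1 at 7.59 RPKM and the E-protein gene TCF12 at 7.17 RPKM. E-proteins pair with Tal1, and Ldb1 is bound by Lmo2. The tcf3a level was 21.1 times that of tal1, and the LDB1 level was 7.12 times that of tal1 and 2.43 times that of lmo2. CBFB, the partner subunit that Runx1 needs for stable DNA binding, had 3.81 RPKM, 6.94 times the runx1 level. ZFPM1 (Fog1), the cofactor of Gata1, had 2.84 RPKM, 2.53 times the gata1a level. These partners are also used outside blood. In whole embryos the levels of the members cannot be assigned to blood cells either.

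A list of 14 upstream factors of blood and vessel progenitors gave 9 rows, of which 8 were detected, with a median of 2.68 RPKM. The homeobox gene MEIS1 had 20.98 RPKM, TFEB, a regulator of lysosomal genes, 6.33 RPKM, the endothelial master gene etsrp 4.56 RPKM and foxc1b 3.12 RPKM. ERG, an ETS factor of endothelium, was under the threshold at 0.436 RPKM. A list of 35 other hematopoietic regulators, among them the signalling genes KIT, JAK2 and stat5a, gave 30 rows. Of these 24 were detected, and the median was 1.88 RPKM. The highest were znfl2a at 20.5 RPKM, runx2b, KLF6 at 7.75 RPKM and GATA3. The erythroid factor gene klf1 and the macrophage factor gene IRF8 were under the threshold at 0.302 and 0.388 RPKM. Over these 3 lists, 41 of 49 rows (83.7%) were detected, against the 46.8% of rows with a name. All 3 were chosen with earlier results of these data known, so this difference is a description and not a test. Of their 63 entries 12 matched no name. Family genes already counted above are counted here again, among them lmo4a, runx2b, GATA3 and MYBL2. The lists are not restricted to blood, since they hold the skeletal factor gene runx2b, the cell-cycle regulator MYBL2 and the lysosomal regulator TFEB.

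Most rows for genes linked to differentiated blood cells were below the threshold, as were most rows of the table. The erythroid and thrombocyte shares detected lay near that of all rows, and the myeloid and lymphoid shares lay lower. Over 4 lists of such effector genes 9 of 38 rows (23.7%) were detected, with a median of 0.255 RPKM and 4 rows listed at 0, where 38.6% of all rows and 46.8% of rows with a name were detected. Of the 47 entries 11 matched no name, among them the globin entries hbbe1.1, hbbe1.2, hbbe1.3 and hbbe2 and the myeloid entry mpx. Against medians of 0.507 RPKM for all rows and 0.854 RPKM for rows with a name, erythroid genes had a median of 0.592 RPKM. Of their 14 rows 5 were detected (35.7%). The highest were the mitochondrial iron importer gene SLC25A37 at 4.02 RPKM, the carbonic anhydrase gene cahz at 2.46 RPKM, the heme synthesis gene UROD at 2.30 RPKM and the embryonic globin gene hbbe3 at 1.74 RPKM. The globin gene hbae3 had 0.540 RPKM, the erythroid heme synthesis gene alas2 0.438 RPKM, and hbae1.1 was listed at 0. The 5 detected erythroid rows all had higher levels than gata1a, the regulator of erythroid genes, at 1.12 RPKM, and the other 9 rows had lower ones. This split is not resolved, since the gata1a counting range of 0.624 to 1.86 RPKM spans several of these rows. It includes hbbe3, FECH at 1.48 RPKM, hemgn at 0.791 RPKM and blvrb at 0.645 RPKM.

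Myeloid effector genes had 2 of 12 rows detected (16.7%, against 38.6% of all rows). Their median was 0.148 RPKM, beside spi1b at 4.63 RPKM and cebpa at 11.7 RPKM. CORO1A, an actin regulator of leukocytes, had 4.41 RPKM and the chemokine receptor gene cxcr3.2 had 1.17 RPKM. The leukocyte plastin gene LCP1 had 0.707 RPKM, 6.55 times less than spi1b, the lysozyme gene lyz 0.126 RPKM, and the 3 rows of MPEG1 0.260, 0.0381 and 0.0290 RPKM. The macrophage receptor gene marco was listed at 0. None of 7 lymphoid rows reached RPKM 1, and the highest were the recombinase genes RAG2 and RAG1 at 0.227 and 0.153 RPKM, with ZAP70 at 0.118 RPKM, ighm at 0.0823 RPKM and CCR9 at 0. Thrombocyte genes had 2 of 5 rows detected (40%), where 38.6% of all rows and 46.8% of rows with a name were. The 2 were f13a1b at 2.51 RPKM and GP1BB at 1.19 RPKM. In contrast, mpl and itga2b had 0.550 and 0.548 RPKM, and thpo was listed at 0. A gene listed at 0 need not be absent, since 7930 rows of the table are at 0.

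**Figure D4:**
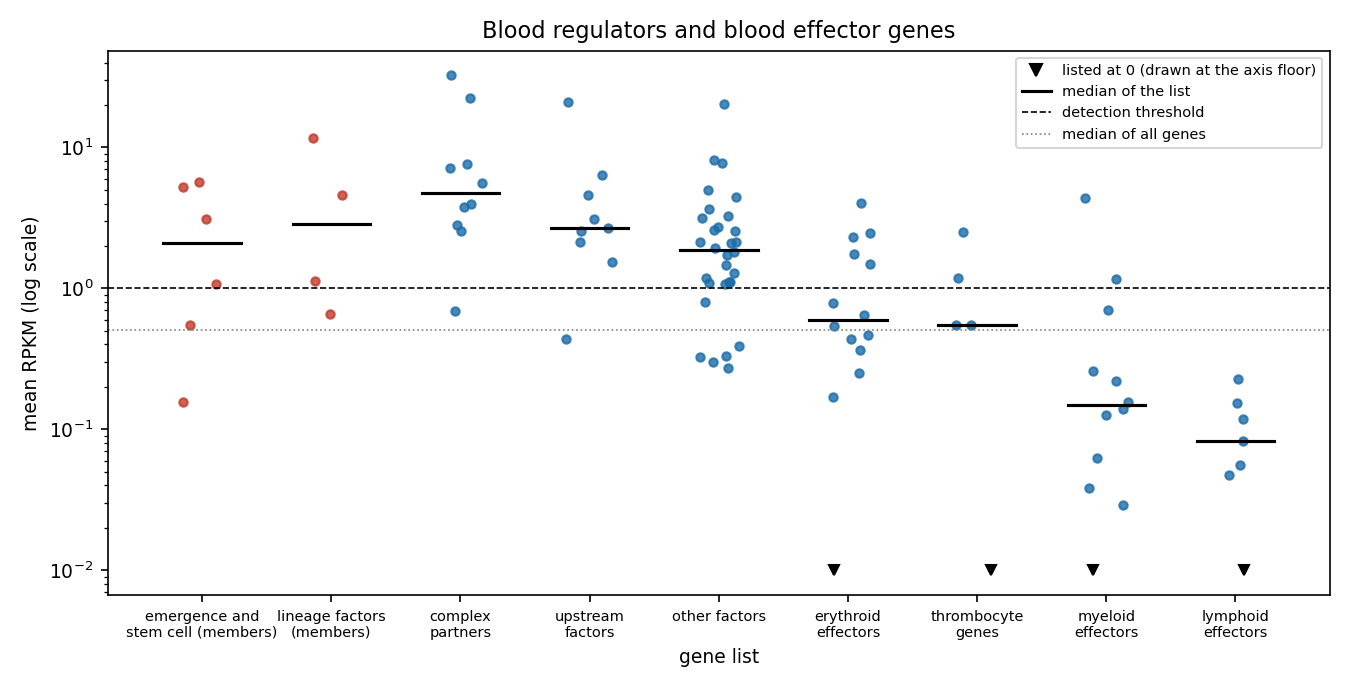
Mean RPKM on a log axis for the genes of 9 lists, members in red and other lists in blue, with the median as a bar and genes listed at 0 as triangles at the axis floor. The medians of the 5 lists of regulators drawn lie between 1.88 and 4.77 RPKM, and those of the effector lists between 0.0823 and 0.592 RPKM.

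Genes beside the members on the chromosome were looked at because the labels do not say how strand and overlapping genes were treated. In the RefSeq annotation (assembly GRCz12tu), which is not the build of the table, 4 members overlap another gene. The gata2a gene lies inside the span of pbrm1, a chromatin remodelling gene with 0.553 RPKM. The microRNA gene mir459, in the span of runx1, was listed at 0. The span of spi1b overlaps si:ch73-314g15.3, which had 1.26 RPKM, and that of cebpa lies within a long non-coding RNA gene that has no value here. Of the 20 nearest protein-coding neighbours 15 could be matched by their full name to 1 row each. Of these, 5 were higher than the member and 10 lower. The neighbour of cebpa is its relative cebpg, and cebpa was 2.46 times higher. The low gata2b lies next to eefsec, a selenocysteine elongation factor gene with 1.60 RPKM, and ikzf1 next to fignl1, with 3.09 RPKM.

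The row named CPEB1 had 30.5 RPKM. It was taken as cpeb1b, the gene of the bait, because a separate row holds cpeb1a, listed at 0, and cpeb1 is a RefSeq synonym of cpeb1b alone. The table does not show how many of its reads came from the injected mRNA. That level was 2.61 times that of cebpa and 55.5 times that of runx1.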

How the data were processed

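Both RIP-seq samples form 1 group. The authors deposited 1 RPKM value per gene, averaged over the replicates, as the name of the table says. Tools listed in the submitters' processing notes are TopHat2 2.1.1 and Bowtie, cutadapt 1.13 and Trimmomatic 0.36, FastQC, bedtools 2.16.2 and MACS2 2.0.10, and the listed build is Zv9. The annotation release, gene lengths, strand setting and treatment of reads with several alignments are not stated there or in the labels. Per the labels' protocols, bead-bound RNA was fragmented before a small-RNA library kit was used.

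Gene names came from a table of Ensembl identifiers, which named 21939 of 33737 rows (65.0%). A list entry with no row of its own name was matched without its paralogue letter, and every row of a matched name was kept. Depth was estimated from RPKM values of 0.4 to 2 shared by at least 3 rows. Steps that gave whole lengths within 0.002 accounted for 135 of 171 such rows (78.9%) and correspond, for a plain mean of 2 libraries, to denominators of 6576771 and 6551381 reads. The search also brings the second step to the scale of the first, which assumes 2 libraries of similar depth. It was tested only on simulated data that were themselves plain means of libraries of similar depth. Both assumptions are therefore untested. Counting ranges are 95% Poisson intervals. Python 3.11.15 with pandas 2.3.3, SciPy 1.17.1 and NumPy 2.4.6 was used.

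Members and lists were chosen with earlier results of these data known. Named were all members, all rows of their families, the 4 highest of each list and its rows at 0; other list genes, markers and neighbours were picked after their values were seen. With 1 group and only a mean, no test was run. Alternatives changed the threshold, the name matching and the set in which genes were ranked. No sequences were used here.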

Additional observations from a re-analysis of the deposited data

How the results depend on the processing

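The number of members detected, of 10, was 7 at RPKM 1, 10 at RPKM 0.1 and 3 at RPKM 5. At RPKM 1, 38.6% of all rows and 46.8% of rows with a name were detected. With exact names only, which leaves out gata2a and spi1b, 5 of 8 members were detected at RPKM 1. Without these 2 rows the median over members was 1.09 RPKM instead of 2.12 RPKM, and it did not change with the highest row of each name, since each member has 1 row. The median share of rows below a member was 72.0% among all rows, 65.97% among rows with a name and 27.5% among rows at RPKM 1 or more. The 27.5% covers all 10 members, and the 3 under RPKM 1, which are not in that set, enter it with a share of 0. At RPKM 5, where 13.3% of all rows and 16% of rows with a name were detected, 5 of 10 partners and 2 of 9 upstream factors were. So were 4 of 30 other regulators, and 0 of 14 erythroid, 0 of 12 myeloid, 0 of 7 lymphoid and 0 of 5 thrombocyte rows. At RPKM 0.1 the shares were 70.7% of all rows and 82.6% of rows with a name. There 13 of 14 erythroid, 8 of 12 myeloid, 3 of 7 lymphoid and 4 of 5 thrombocyte rows were detected. All rows of the 3 lists of other regulators were too. The size of the difference between regulators and effector genes thus depends on the threshold, while the 3 lists of other regulators had the larger shares at each threshold. A stricter step tolerance of 0.001, chosen after seeing the data, left the estimate at 13.1 reads per kilobase. No paired analysis was possible because there is 1 group, and values without a replicate could not be given for a deposited mean. Depth limits gata1a, tal1, ikzf1, runx1 and gata2b, which have between 2.05 and 14.7 reads per kilobase.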

Other observations

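A gene outside the lists was picked after its value was seen. RUNX1T1, a transcriptional corepressor gene known in human leukaemia as a fusion partner of RUNX1 and used in normal neural tissue, had 20.6 RPKM, 37.4 times the level of runx1.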
